A study of Mus musculus with 10 samples.

Results

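Tight junctions are the belts of membrane protein strands that close the space between epithelial cells near the lumen, and the claudins are the proteins that form those strands. Some claudins line channels that let cations and water pass between cells, while others tighten the seal, so the mixture that a cell makes sets how leaky the epithelium is. Occludin and JAM-A are membrane proteins of the same junction, and ZO-1 is the scaffold that ties them to actin. In the mammalian gut Cldn2 is known as a claudin of crypts and of young or inflamed epithelium, Cldn15 as a cation channel that supplies sodium for nutrient uptake, and Cldn3, Cldn4, Cldn7, Cldn8 and Cldn23 are usually counted among the claudins of the barrier. That division is a simplification: Cldn4, Cldn7 and Cldn8 have also been described as anion pathways or as partners of other claudins, depending on the cell.

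The genes described here are 10 members of this junction, Cldn2, Cldn3, Cldn4, Cldn7, Cldn8, Cldn15, Cldn23, Ocln (occludin), F11r (JAM-A) and Tjp1 (ZO-1), out of the 56748 genes of the table. They were taken by name from a list made with earlier results of these data known, and each name matched 1 protein-coding gene. The libraries came from mouse colon organoids, which are cultures of colon epithelium grown from crypt cells. Organoids received vehicle (replicates 1 to 5) or 100 µM WY-14643 (replicates 6 to 10) for 2 days, starting 3 days after passage. WY-14643 activates PPARα, a nuclear receptor that senses fatty acids. The labels name no strain, genotype, sex or age, and no animal, organoid line or culture day for any replicate. All 10 libraries carry the same tissue label and differ in treatment, so p-values measure only the spread between them, which may be technical. RNA came from whole cultures, so fewer cells of a type and less RNA per cell cannot be told apart.

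Polyadenylated RNA was sequenced, and 15618244 to 29271304 gene-assigned reads stood behind each library. The libraries resembled each other in pairs: deviations from the group mean were shared between replicates 1 and 6, 2 and 7, 3 and 8, 4 and 9, and 5 and 10, with correlations across genes of 0.423 to 0.782, against at most 0.0602 for any other vehicle and WY-14643 library. The labels state no such pairing, and below these are called number-order pairs. The tissue label fitted the markers: all 7 epithelial markers were expressed, with a summed level of 3766 to 7294 FPKM (fragments per kilobase of gene, scaled for library depth). The summed level of 6 mesenchymal markers was at most 0.284 FPKM, that of 3 endothelial markers at most 0.0409 FPKM, and that of 4 immune markers at most 0.323 FPKM, with 2 of those 4 at 0 in every library. Markers that differ between cell states varied widely in their sums. That of 7 stem and dividing-cell markers was 60.5 to 251 FPKM under vehicle and 70.7 to 238 FPKM under WY-14643. It rested mainly on Pcna, Mki67 and Top2a, genes of dividing cells. Over the 10 libraries Lgr5 of that list spanned 2.82 to 5.84 FPKM and Axin2 14.1 to 30.7 FPKM. Ascl2 spanned 0.891 to 3.33 FPKM and Smoc2 0.0514 to 0.361 FPKM. The sum of 8 absorptive colonocyte markers was 30.4 to 983 and 52.7 to 1823 FPKM, and it rested mainly on Car1. Of those 8, Car4 was at 0 in every library.

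The most abundant of the 10 genes were sealing claudins. FPKM is corrected for gene length, so the levels of different genes can be set in order. Over all 10 libraries Cldn4 averaged 177 FPKM, Cldn7 156 FPKM, F11r 129 FPKM, Cldn3 110.5 FPKM, Tjp1 66.4 FPKM, Ocln 24.1 FPKM, Cldn2 19.6 FPKM, Cldn15 12.0 FPKM, Cldn23 11.9 FPKM and Cldn8 0.457 FPKM. Neighbours near the top were not separated by the spread between libraries. Cldn4 exceeded Cldn7 in 5 of 10 libraries, Cldn7 exceeded F11r in 8 of 10, and F11r exceeded Cldn3 in 8 of 10. Cldn3 was above Tjp1 in all 10 libraries, and Tjp1 above Ocln in all 10 with no overlap of their ranges (Tjp1 at least 47.1 FPKM, Ocln at most 30.8 FPKM). Ocln exceeded Cldn2 in 7 of 10, Cldn2 exceeded Cldn15 in 6 of 10 and Cldn15 exceeded Cldn23 in 4 of 10 libraries, so these neighbours are not ordered beyond their spread. Cldn8 stood apart at the bottom, with at most 0.788 FPKM where Cldn23 had at least 8.06 FPKM. Among 19 other claudins searched by name, 1 passed the filter on low values: Cldn12, a claudin without the usual scaffold-binding tail, at 24.8 ± 4.15 FPKM under vehicle and 24.7 ± 2.15 FPKM under WY-14643 (SD, n = 5 each). Of the rest, 8 were at 0 in every library, among them Cldn5, the claudin of blood vessel walls.

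**Figure D1:**
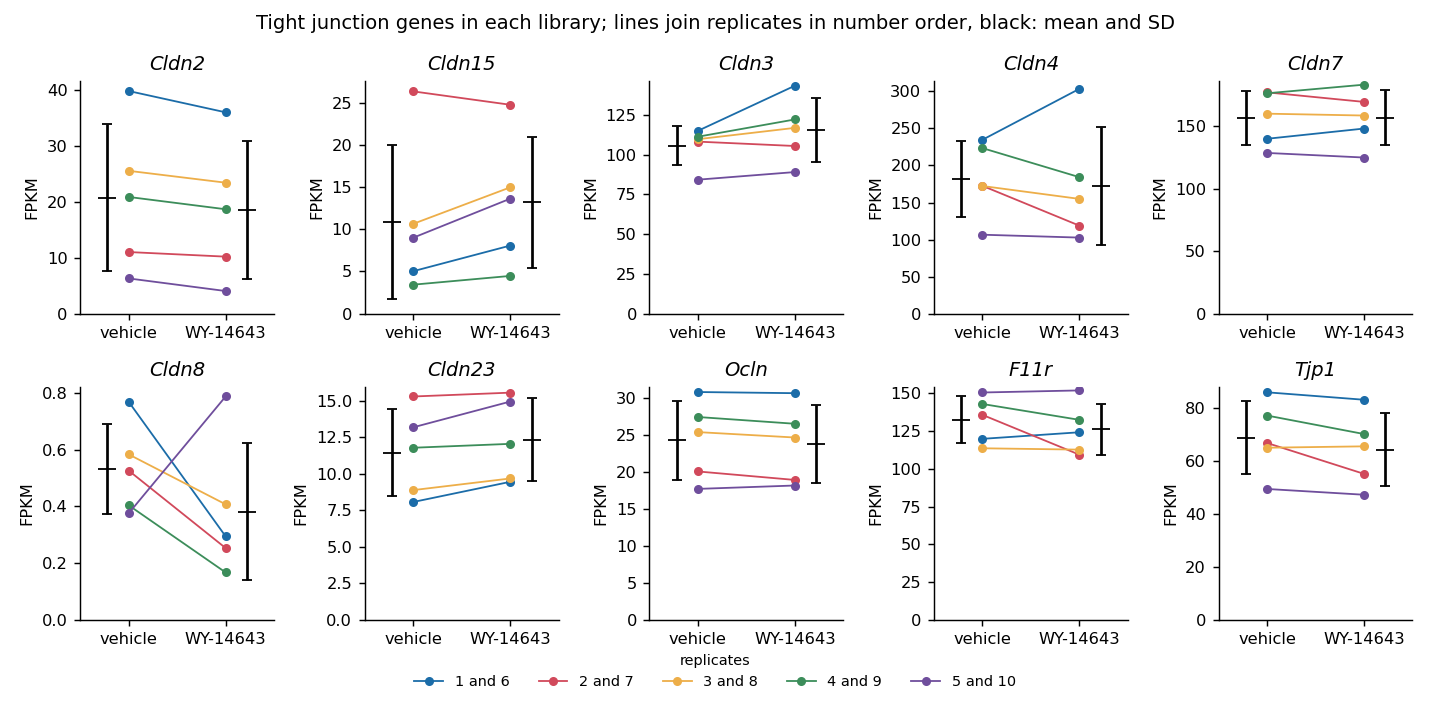
Level of each of the 10 genes (FPKM, linear axes from 0) in the 5 vehicle and 5 WY-14643 libraries. Coloured lines join replicates in number order, and the black marks give the mean and SD of each group (n = 5); the lines of most genes run nearly level at different heights, and for no gene do the groups separate.

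Cldn2 and Cldn15, the pore-forming claudins, varied most between libraries and differently from each other. Their promoter stretches are the 250 bases before the annotated start of each gene (RefSeq, build GRCm38.p6, read 5′ to 3′ on the strand of the gene). They are shown because of this spread, with that of Cldn4, the sealing claudin with the highest mean level over the 10 libraries. Capitals mark matches to any of 7 motifs searched on both strands. The Cldn2 window lies at chrX:139800558-139800807 on the plus strand, the Cldn15 window at chr5:136967619-136967868 on the plus strand and the Cldn4 window at chr5:134946935-134947184 on the minus strand.

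Cldn2: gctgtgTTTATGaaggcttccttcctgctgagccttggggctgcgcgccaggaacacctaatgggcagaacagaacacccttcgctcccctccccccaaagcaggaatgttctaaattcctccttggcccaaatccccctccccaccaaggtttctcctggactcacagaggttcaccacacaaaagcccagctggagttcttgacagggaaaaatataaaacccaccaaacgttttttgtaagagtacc

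Cldn15: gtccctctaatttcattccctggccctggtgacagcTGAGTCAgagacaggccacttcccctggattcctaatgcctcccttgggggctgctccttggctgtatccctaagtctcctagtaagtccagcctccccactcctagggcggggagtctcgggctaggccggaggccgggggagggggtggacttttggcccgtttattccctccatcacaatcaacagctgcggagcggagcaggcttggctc

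Cldn4: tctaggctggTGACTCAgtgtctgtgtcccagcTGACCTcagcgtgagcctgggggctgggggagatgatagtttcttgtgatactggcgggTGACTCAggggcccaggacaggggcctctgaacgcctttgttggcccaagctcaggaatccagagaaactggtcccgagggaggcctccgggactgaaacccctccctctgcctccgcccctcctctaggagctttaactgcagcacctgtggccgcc

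That of Cldn2 had the core bound by CDX factors, TTTATG, starting 244 bases before the gene start, and 10.8% of all 32851 promoter windows of this length hold it. That of Cldn15 had 1 match to the AP-1 motif TGANTCA, 214 bases before the start, and that of Cldn4 had 2, at 240 and 158 bases; 6.75% of all windows hold this motif. The Cldn4 window also had the core AGGTCA of nuclear receptor sites on the opposite strand, found in 14.02% of all windows. Of the 10 windows of the members, 3 held the AP-1 motif (Cldn4, Cldn15 and F11r) and 4 held AGGTCA (Cldn4, Cldn7 and Ocln). The paired form of that core which PPARα and RXR bind, AGGTCANAGGTCA, which holds the core on both sides, was in 0 of the 10 windows of the members and in 11 of all 32851. The GATA motif AGATAA, found in 9.99% of all windows, had no match in the windows of the members. Nor did the HNF1 core GTTAAT, which 6.43% of all windows hold, or the TCF/LEF motif (CTTTGA; 13.8% of all windows). Sequence entries were matched for 8 of the 10 genes; those for Cldn8 and Cldn23 were not.

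Cldn2, whose product forms cation and water channels, stood at 39.9, 11.04, 25.6, 20.9 and 6.31 FPKM in vehicle replicates 1 to 5. In WY-14643 replicates 6 to 10 it stood at 36.1, 10.2, 23.5, 18.7 and 4.05 FPKM. The highest library held 9.84 times the level of the lowest, and the groups overlapped almost completely, yet each WY-14643 library was somewhat below its number-order partner in all 5 pairs. Of all genes tested, 6.09% were lower in all 5 pairs. The SD of Cldn2 on the log2(FPKM + 1) scale over the 10 libraries was 0.99, and 1.34% of the 13607 genes tested had a larger one.

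Cldn15, a cation channel claudin, stood at 5.03, 26.3, 10.6, 3.43 and 9.0 FPKM in vehicle replicates 1 to 5 and at 8.07, 24.7, 14.96, 4.47 and 13.6 FPKM in WY-14643 replicates 6 to 10. Replicates 2 and 7 were highest in their groups and replicates 4 and 9 lowest, and the groups overlapped. The level was higher in the WY-14643 library of 4 of 5 pairs. Its SD on the log2 scale was 0.90, exceeded by 2.07% of the genes tested.

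The balance of the 2 channel claudins depended on the pair. In FPKM, Cldn2 was 7.92, 0.419, 2.40, 6.09 and 0.701 times Cldn15 in vehicle replicates 1 to 5. It was 4.47, 0.413, 1.57, 4.18 and 0.297 times Cldn15 in WY-14643 replicates 6 to 10. Cldn2 thus led in pairs 1, 3 and 4 and Cldn15 in pairs 2 and 5, under both treatments. The ratio was lower in the WY-14643 library of all 5 pairs, by a mean of -0.65 ± 0.44 on the log2 scale (SD, n = 5 pairs), while the pair means themselves had an SD of 1.83. The change in pair 2 was -0.02, so that pair was level. The ratio is a description of the levels above and carries no test.

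**Figure D2:**
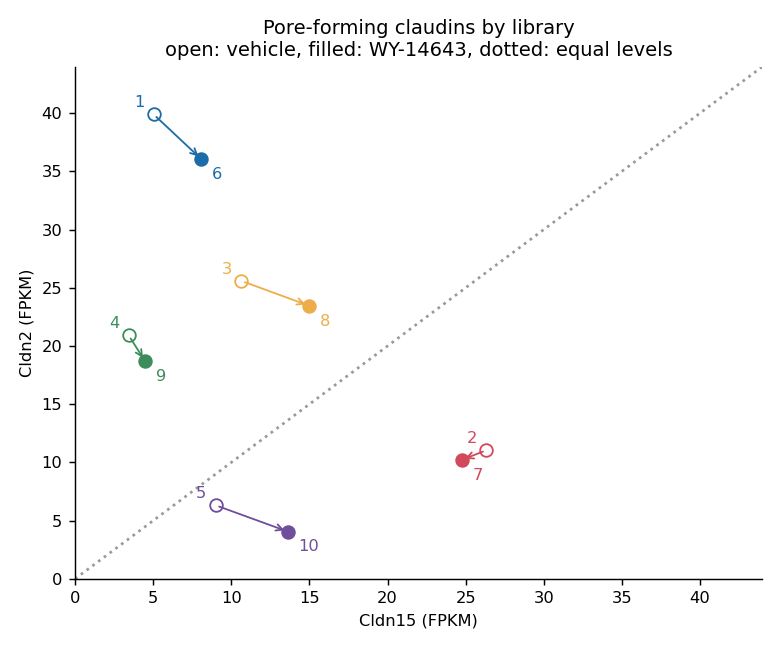
Cldn2 (vertical, FPKM) against Cldn15 (horizontal, FPKM) in each library; open circles are vehicle, filled circles WY-14643, arrows join number-order pairs, numbers are replicates and the dotted line marks equal levels. Replicates 1, 3, 4, 6, 8 and 9 lie above the line and 2, 5, 7 and 10 below it, and 4 of the 5 arrows point down and to the right.

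Among the 4 tested sealing claudins Cldn4 varied most, with an SD of 0.51 on the log2(FPKM + 1) scale. It stood at 235, 172, 172, 223 and 107 FPKM in vehicle replicates 1 to 5 and at 303, 119, 155, 184 and 103 FPKM in WY-14643 replicates 6 to 10. Pair 1 was highest and pair 5 lowest in both groups, as for Cldn2. Pair 1 was also the only pair in which the WY-14643 library was higher; the other 4 were lower.

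Cldn3, which lies near Cldn4 on chromosome 5, was steadier. Its levels were 115, 108, 109.7, 111 and 84.2 FPKM under vehicle and 143, 105.4, 117, 122 and 89.0 FPKM under WY-14643, in replicate order. Replicates 5 and 10 were again the lowest of their groups, and the WY-14643 library was higher in 4 of 5 pairs. Cldn7, a claudin of the lateral as well as the apical membrane, stood at 139.8, 177, 159.9, 176 and 129 FPKM under vehicle and 148, 169, 158, 183 and 125 FPKM under WY-14643. Its groups covered almost the same range.

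Cldn23 ran opposite to Cldn2 across the pairs. It stood at 8.06, 15.3, 8.87, 11.8 and 13.2 FPKM in vehicle replicates 1 to 5 and at 9.44, 15.5, 9.67, 12.0 and 14.9 FPKM in WY-14643 replicates 6 to 10. Pair 1, highest in Cldn2, was lowest here, and pairs 2 and 5, lowest in Cldn2, were highest. Each WY-14643 library exceeded its partner, in 5 of 5 pairs, by small amounts; 5.63% of all genes tested did so. Over the 10 libraries Pearson's r between Cldn23 and Cldn2 was -0.86 on the log2(FPKM + 1) scale, a description only, because the libraries fall into 5 pairs.

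Cldn8, a claudin of distal colon and kidney tubule, was barely expressed. It stood at 0.769, 0.526, 0.583, 0.404 and 0.376 FPKM under vehicle and 0.294, 0.253, 0.407, 0.167 and 0.788 FPKM under WY-14643, which rest on 7 to 43 reads. Its mean of 0.457 FPKM was below the filter of 0.5 FPKM, so it was not tested with the other 9. With no filter its log2 fold change was -0.16 ± 0.13 (SE; limma, adjusted p = 1.0). WY-14643 was lower in 4 of 5 pairs and replicate 10 was the highest of all.

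The membrane partners and the scaffold varied less. Ocln, which joins the claudin strands at cell-to-cell contacts, stood at 30.8, 20.1, 25.4, 27.5 and 17.7 FPKM under vehicle and 30.7, 18.9, 24.7, 26.5 and 18.2 FPKM under WY-14643. Partners of a pair differed by little and pairs by much, with pair 1 highest and pair 5 lowest, as for Cldn2 and Cldn4.

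Tjp1, the scaffold that recruits claudins through their tails, stood at 85.7, 66.6, 64.9, 77.0 and 49.3 FPKM under vehicle and 82.9, 55.0, 65.4, 70.0 and 47.1 FPKM under WY-14643. Its highest and lowest pairs were those of Ocln. F11r, an immunoglobulin-type adhesion protein, stood at 119.9, 136, 114, 143 and 151 FPKM under vehicle and 124, 109, 113, 132 and 152 FPKM under WY-14643. Pair 5, lowest for Ocln, Tjp1, Cldn2, Cldn3, Cldn4 and Cldn7, was highest for F11r.

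The single comparison of the study, WY-14643 against vehicle, was made for each gene. No member passed in either direction. In limma over all 13607 genes without pairs, 0 genes were called higher and 0 lower (0% in each direction), and 0 of the 9 tested members had an unadjusted p under 0.05, against 1.51% of all genes tested. Applied without pairs to whole reads recovered from the FPKM, voom called 0 genes as well. With number-order pairs as a block, limma called 0.287% of the genes higher and 0.0294% lower, and again 0 members.

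The group means differed little against their spread. Cldn2 averaged 20.7 ± 13.2 FPKM under vehicle and 18.5 ± 12.4 FPKM under WY-14643, and Cldn15 10.9 ± 9.11 and 13.2 ± 7.73 FPKM (SD, n = 5 each, as for the next means). Cldn4 averaged 182 ± 50.9 and 173 ± 79.6 FPKM, Cldn3 105.6 ± 12.2 and 115 ± 20.1 FPKM, and Cldn7 156 ± 21.7 and 157 ± 22.1 FPKM. For Cldn23 the means were 11.4 ± 2.99 and 12.3 ± 2.85 FPKM, for Ocln 24.3 ± 5.36 and 23.8 ± 5.27 FPKM, for F11r 133 ± 15.5 and 126 ± 17.1 FPKM, and for Tjp1 68.7 ± 13.7 and 64.1 ± 13.8 FPKM. No gene's groups separated; 0.243% of all genes tested had every WY-14643 library above every vehicle library and 0.11% every one below.

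The log2 fold change, on the log2(FPKM + 1) scale, was largest in size for the channel claudins. It was 0.36 ± 0.52 for Cldn15 (SE; limma, adjusted p = 1.0) and -0.21 ± 0.58 for Cldn2 (adjusted p = 1.0) without pairs. With pairs the same differences had SEs of 0.10 and 0.07, with unadjusted p = 0.0086 and 0.0214 and adjusted p = 0.250 and 0.352 (limma), so neither passed. A share of 10.6% of all genes tested had an unadjusted p under 0.05 in that fit, and 2 of the 9 members did. Without pairs the value for Cldn15 moved with single libraries. Dropping vehicle replicate 4 lowered it to 0.080, WY-14643 replicate 7 to 0.099 and vehicle replicate 1 to 0.19, while dropping WY-14643 replicate 9 raised it to 0.66 and vehicle replicate 2 to 0.74. The sign for Cldn2 without pairs turned to 0.08 without vehicle replicate 1 and to 0.20 without WY-14643 replicate 10. That for Cldn4 (-0.13) turned to 0.030 without WY-14643 replicate 10.

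The intervals bound what could have been missed. With pairs, the 95% interval of the log2 fold change was -0.10 to 0.10 for Cldn7, -0.12 to 0.06 for Ocln, -0.22 to 0.02 for Tjp1 and -0.22 to 0.07 for F11r. It was -0.02 to 0.25 for Cldn3, -0.0013 to 0.22 for Cldn23 and -0.42 to 0.16 for Cldn4. For Cldn2 it was -0.38 to -0.042 and for Cldn15 0.13 to 0.60, intervals that are not adjusted for the number of genes. Without pairs it reached from -1.49 to 1.07 for Cldn2, from -0.78 to 1.503 for Cldn15 and from -0.80 to 0.54 for Cldn4, and for the other 6 it lay within -0.50 to 0.53. In that fit a 2-fold change of Cldn2 or Cldn15 was not excluded upward, nor was one downward in Cldn2.

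**Figure D3:**
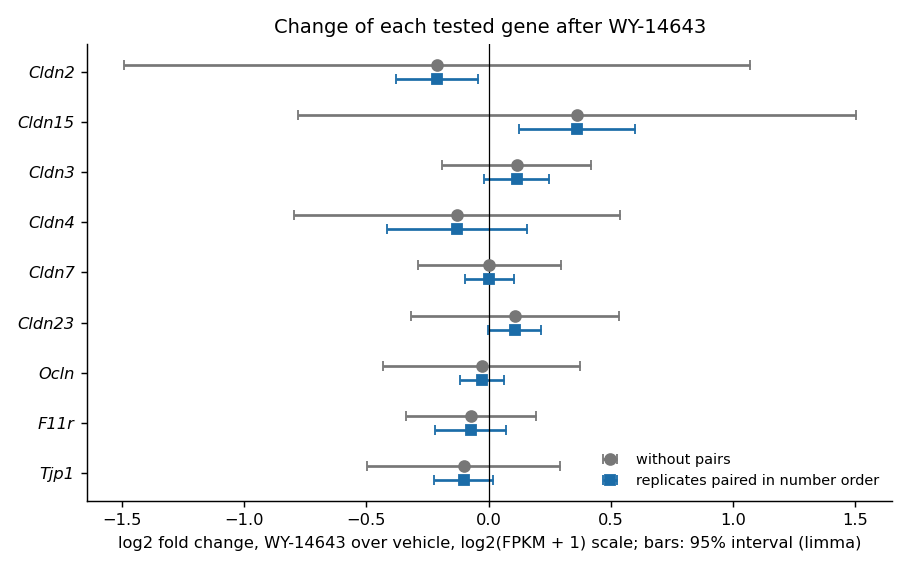
Log2 fold change of the 9 tested genes, WY-14643 over vehicle, with 95% intervals from limma; grey circles are the fit without pairs and blue squares the fit with number-order pairs. Intervals of Cldn2 and Cldn15 shrink most with pairs and then lie on opposite sides of 0, but neither gene passed the adjustment over all 13607 genes.

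Most of the spread of each tested member lay between pairs. Pairs account for 4 of the 9 degrees of freedom among 10 libraries and treatment for 1. Pairs took 98.0% of the sum of squares of log2(FPKM + 1) for Cldn2, 93.5% for Cldn15 and 99.3% for Ocln, and 79.7% for F11r, the lowest of the 9 members. Treatment took 8.08% for Cldn3, 4.92% for F11r, 4.49% for Cldn15 and at most 3.37% for the others. Over all genes tested the median share was 83.6% for pairs and 2.27% for treatment. The 5 pairs stood in the same order in both groups for 5 of the 9 members, Cldn2, Cldn15, Cldn3, Cldn23 and Ocln, and for 14.5% of all genes tested.

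**Figure D4:**
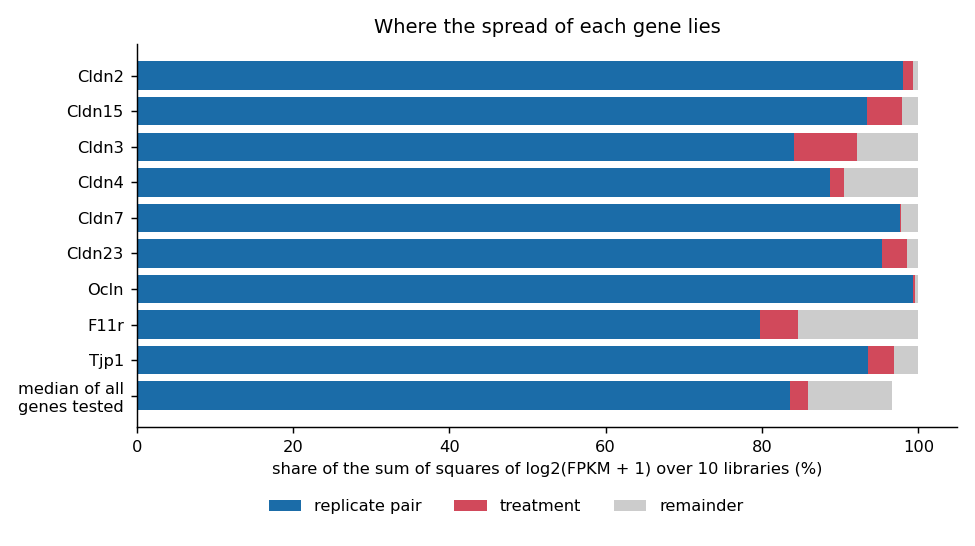
Share of the sum of squares of log2(FPKM + 1) over the 10 libraries (percent) that lies between number-order pairs (blue), between treatments (red) and in the remainder (grey), for the 9 tested genes and as separate medians over all 13607 genes, which need not add up to 100. The blue part is the largest for every gene, from 79.7% for F11r to 99.3% for Ocln.

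Channel and sealing claudins were compared as classes without a test. The summed level of Cldn2 and Cldn15 averaged 31.6 ± 11.7 FPKM under vehicle and 31.7 ± 10.95 FPKM under WY-14643 (SD, n = 5 each). That of Cldn3, Cldn4, Cldn7, Cldn8 and Cldn23 averaged 456 ± 73.8 and 458 ± 102 FPKM. The channel claudins made up 6.37% ± 1.82 and 6.43% ± 1.64 of the FPKM of all 7. The log2 ratio of the class sums was -3.93 ± 0.47 in vehicle and -3.90 ± 0.41 in WY-14643, a difference smaller than either SD. Within pairs 1 to 5 it moved by -0.30, 0.11, 0.12, -0.01 and 0.21, in both directions. Cldn2 was lower and Cldn15 higher with WY-14643 within 4 of 5 pairs, and their sum was nearly the same in both groups. Group means of cell-state markers also differed, with overlapping groups and none past the adjustment. All 6 tested absorptive colonocyte markers had a higher mean log2 level with WY-14643 (median log2 fold change 0.32, against -0.01 over all genes tested). Car1 had the largest, 1.02 (limma with pairs, adjusted p = 0.240), but its SE was 1.13 without pairs (limma, unadjusted p = 0.386). Krt20, Car1, Slc26a3 and Ceacam20 were higher in 4 of 5 pairs, Guca2a in 3 and Muc3 in 2. Aqp8 of the same list fell below the filter on low values. With no filter its log2 fold change was -0.0095, and it was lower in 3 of 5 pairs. Of 6 goblet cell markers 5 had a lower mean log2 level (median log2 fold change -0.28), while 2 of the 6 had a higher mean FPKM. The stem and dividing-cell markers did not share a direction: of 6 tested, 3 had a higher and 3 a lower mean log2 level (median 0.02). In mean FPKM, 1 of the 7 listed was higher with WY-14643. Among them Lgr5, a receptor of stem cells, was lower in 5 of 5 pairs (-0.27, limma with pairs, adjusted p = 0.240), as were 6.09% of all genes tested. Ascl2 of the same list was higher in 4 of 5 pairs (0.25). Their part in the differences of Cldn2 and Cldn15 was not tested.

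Several markers of epithelial cell states differed between pairs, not all in the same order. Krt8, a keratin of simple epithelium, was at 2345 and 2694 FPKM in replicates 1 and 6, where Cldn2 was highest, and at 1024 and 938 FPKM in replicates 5 and 10, where it was lowest. Epcam was instead highest in replicates 2 and 7, at 579 and 499 FPKM, and Vil1 (villin), a protein of microvilli, covered 137 to 176 FPKM with no shared order of the pairs. Cdx2, the homeobox factor of intestinal identity, ran the other way, with 63.9 and 71.3 FPKM in replicates 1 and 6, 138 and 136 FPKM in replicates 2 and 7, and 125 and 143 FPKM in replicates 5 and 10. Mki67, a gene of dividing cells, was at 83.0 and 76.1 FPKM in replicates 1 and 6 but at 9.12 and 13.0 FPKM in replicates 4 and 9, where Cldn2 was also well expressed. Krt20, a keratin of mature surface cells, was at 6.12 and 6.92 FPKM in replicates 5 and 10 and at 54.9 to 169 FPKM in all others. The most abundant absorptive marker, Car1, a carbonic anhydrase of colonocytes, ranged from 21.0 FPKM in replicate 5 to 1626 FPKM in replicate 9. Apart from Car1, these markers were picked with their values in view, and their part in the differences of the claudins was not tested.

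The genes whose levels most resembled a member's were sought among 11040 protein-coding genes by Pearson's r of log2(FPKM + 1) over the 10 libraries, which share pairs. For Cldn2 they were Srd5a1, a steroid reductase, with r = 0.99, Tnfaip8 with r = 0.98 and Gyg, which primes glycogen, with r = 0.98. For Cldn15 they were Cib1, a calcium-binding protein (r = 0.99), Dhcr7, the last enzyme of cholesterol synthesis (r = 0.97), and Mmab, which acts on vitamin B12 (r = 0.96). For Cldn4 they were Map4, a microtubule protein (r = 0.98), Unc13b (r = 0.97) and Tjp1 itself (r = 0.97). Cib1 moved within a narrow range of 43.2 to 54.7 FPKM, so likeness of pattern here does not mean likeness of range.

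Other junction genes were grouped in 6 lists. Of 55 tested genes in all, 0 were called higher or lower in limma with or without pairs (background 0% without pairs, 0.287% higher and 0.0294% lower with pairs). An unadjusted p under 0.05 was reached by 0 of them without and 7 with pairs, against 1.51% and 10.6% of all genes tested. Median log2 fold changes lay close to the -0.01 of all genes tested. They were -0.0034 for 7 tight junction membrane partners, -0.06 for 17 plaque and polarity genes, -0.04 for 9 adherens junction genes, 0.03 for 8 desmosome genes and -0.03 for 13 actomyosin and sealing regulators. For the 9 tested members the median was -0.03.

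Of these 55 genes, 3 were higher in all 5 pairs and 4 were lower, against 5.63% and 6.09% of all genes tested. The 4 lower genes were Amotl1, Cgnl1, Rhoa and Wnk1. Ildr1, a protein of the corners where 3 cells meet, stood at 35.4, 54.6, 41.5, 51.4 and 35.6 FPKM under vehicle and 46.1, 66.1, 52.9, 72.3 and 40.7 FPKM under WY-14643. It was higher in 5 of 5 pairs, with a log2 fold change of 0.33 (limma, adjusted p = 1.0 without and 0.0656 with pairs). Amotl1, an angiomotin of the junctional plaque, was lower in 5 of 5 pairs, at 11.3 ± 3.67 FPKM under vehicle and 9.23 ± 3.67 FPKM under WY-14643 (SD, n = 5 each; limma, adjusted p = 0.0932 with pairs). On reads recovered from the FPKM and with pairs, voom gave adjusted p = 0.00177 for Ildr1 and 0.010 for Amotl1, past the threshold of 0.05. They were the only calls among the 55, in a fit that called 1.4% of the genes higher and 0.36% lower and 0 of the 9 tested members. That fit was chosen after seeing the data. Tjp3 (ZO-3), a second scaffold, was at 46.8 ± 9.34 and 54.7 ± 6.69 FPKM, and Prss8, a membrane protease of the epithelial surface, at 12.1 ± 0.645 and 14.1 ± 1.69 FPKM; both were higher in 5 of 5 pairs and did not pass (limma, adjusted p = 0.264 and 0.255 with pairs).

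The most abundant gene of each list differed little between groups. Lsr, another protein of 3-cell corners, was at 55.5 ± 4.10 and 55.6 ± 7.02 FPKM, Ctnnb1 (β-catenin) at 315 ± 49.0 and 324 ± 53.9 FPKM, and Dsp (desmoplakin) at 113 ± 18.2 and 107 ± 19.1 FPKM. Ybx3, a junction-associated RNA-binding protein, was at 185 ± 50.1 and 166 ± 27.4 FPKM, and Epcam, which binds and stabilises Cldn7, at 425 ± 89.7 and 412 ± 49.1 FPKM. None of these 5 passed.

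**Figure D5:**
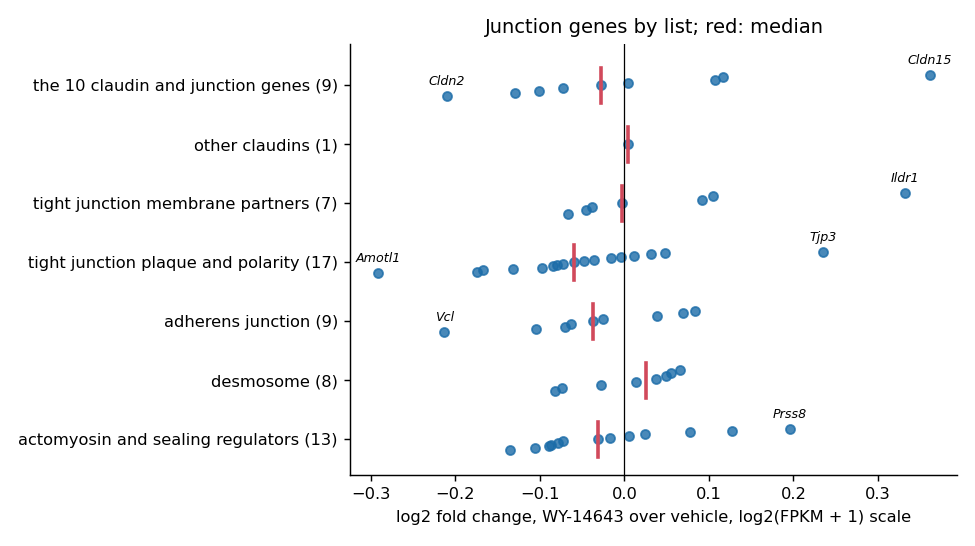
Log2 fold change, WY-14643 over vehicle on the log2(FPKM + 1) scale, of the 9 tested members and of the tested genes of 6 other junction lists; the number of genes is in parentheses and red lines are medians. The medians lie between -0.06 and 0.03, and Cldn15 (0.36), Ildr1 (0.33) and Amotl1 (-0.29) lie farthest out.

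The genes lie on these whole-gene spans in build mm39, as the table gives them. Cldn2 lies on chromosome X from 138701577 to 138712135 and Cldn7 on chromosome 11 from 69855605 to 69858711. On chromosome 5 are Cldn4 from 134973973 to 134975788, Cldn3 from 135015068 to 135016326 and Cldn15 from 136995470 to 137004712. Cldn8 lies on chromosome 16 from 88357716 to 88360071 and Cldn23 on chromosome 8 from 36291866 to 36293713. Ocln lies on chromosome 13 from 100633015 to 100689226, F11r on chromosome 1 from 171265103 to 171292171 and Tjp1 on chromosome 7 from 64945913 to 65177529. The 3 genes on chromosome 5 did not share 1 pattern: Cldn3 and Cldn4 were both highest in replicates 1 and 6, while Cldn15 was highest in replicates 2 and 7.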

How the data were processed

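The deposited values are FPKM, made by the authors from fragments per gene, with 1 column per library. HISAT2 2.0.5 and featureCounts 1.5.0-p3 with build mm39 are named in the submitters' processing notes. Annotation, strand setting and scaling are not stated, so overlapping antisense reads cannot be told apart. FPKM times gene length gave whole multiples of 1 read for 100% of values above 0 (tolerance 0.01), and so the depth. The 13607 genes averaging at least 0.5 FPKM were tested with limma 3.58.1 in R 4.3.3 on log2(FPKM + 1), with a trend, robust priors, no covariate and Benjamini-Hochberg adjustment over all of them (threshold 0.05). Number-order pairs as a block were an alternative: the labels give the groups different replicate numbers, and the pairing comes from the correlations in the report. The fits were tested on simulated data. Members and lists were chosen with earlier results of these data known. The text names the 10 members and, of each junction list, up to 3 genes with the smallest p and the most abundant gene. It also names the 3 genes most like Cldn2 and the 2 other most variable members, and cell type markers, some picked with their values in view. Not all of these are printed. Plots were made in Python 3.11.15 with matplotlib 3.10.9.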

Additional observations from a re-analysis of the deposited data

Results flagged for a closer look

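Cldn3 in vehicle replicate 5, at 84.2 FPKM, lay far below the other 4 vehicle libraries, with a gap of 0.779 of the group's range. Of 22 groups of values examined in this way 1 stood out, and chance gives about 1 in 20. Its WY-14643 partner, replicate 10, was also the lowest of its group, at 89.0 FPKM.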

How the results depend on the processing

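No member was called in either direction in any of the 26 alternatives, those with pairs included, and the difference of the channel to sealing log2 ratio (0.03) lay between -0.10 and 0.16 in its 13. Counts over all genes depended on the fit. Against 0 and 0 in the fit without pairs, the replicate block called 39 higher and 4 lower. It called 27 and 6 without pair 1, 3 and 0 without pair 2, 2 and 0 without pair 3, 12 and 1 without pair 4, and 30 and 3 without pair 5. With voom the block called 190 and 49, with a pseudocount of 0.1 it called 37 and 3, and with values rescaled to TPM 41 and 5. Library weights called 18 and 3. The pairing is a hint from the data; the block with voom, with a pseudocount of 0.1 and with TPM were chosen after seeing the data. Leaving out 1 library called 0 to 2 higher and 0 lower: 1 without vehicle replicate 2, 2 without vehicle replicate 5, 1 without WY-14643 replicate 10 and 0 otherwise.

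Small fold changes crossed 0. That of Cldn7 (0.00) was -0.016 and -0.0092 with the block but without pair 1 or pair 4, -0.0014 with library weights and -0.0023 with TPM, with and without pairs. That of Cldn12 (0.00) was -0.0055 and -0.037 with the block but without pair 1 or 2, -0.017 with weights and -0.0020 with TPM, and Dsp (-0.07) was at 0.0019 with the block but without pair 2. Leaving out 1 library gave -0.54 to 0.20 for Cldn2, -0.36 to 0.030 for Cldn4, -0.064 to 0.082 for Cldn7, -0.13 to 0.061 for Ocln, -0.21 to 0.00082 for Tjp1, -0.076 to 0.080 for Cldn12, -0.19 to 0.020 for Ppl, -0.18 to 0.0096 for Dsp and -0.045 to 0.14 for Dsc2. Each of those fits has 1 library fewer and leaves its number-order partner without a match. What moved the values was not tested. Of the members, depth limited Cldn8 most, with at most 43 reads.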
